A study of Ovis aries with 40 samples.

Results

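Distal lung of CFTR-/- (CF) and wild-type (WT) sheep was compared at term, in 2 CF and 2 WT libraries that make up 4 of the 40 libraries of the series. The 4 libraries were taken by their labels (genotype, distal lung, day 147), and no measured value entered the choice. The libraries of the series come from proximal and distal lung of CF and WT animals at 5 ages, with RNA taken from the whole frozen tissue. WT animals were American Romney sheep from ordinary breeding, and the methods state that WT lambs at term were born naturally. CF animals were American Romney clones made by nuclear transfer from male fetal fibroblasts in which exon 2 of CFTR had been targeted. Ewes of both groups were given cloprostenol to synchronize estrus. WT ewes were then mated, whereas the recipient ewes of CF embryos also had vaginal sponges and an embryo transfer. How the CF lambs at term were delivered, the sex of the WT lambs and any treatment of the lambs themselves were not given in the sources used here. Genotype, cloning, the founder fibroblasts, sex, the handling of the ewes, delivery and time after birth therefore cannot be told apart in any difference below.

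Late in gestation the lung changes from an organ that secretes liquid to an organ that absorbs it. Chloride secretion through CFTR and other channels fills the fetal airspaces, and around birth the epithelial sodium channel, built of subunits that include SCNN1A, SCNN1B and SCNN1G, draws sodium and water back across the epithelium with the help of the basolateral sodium pump. Over the same period type 2 cells make surfactant, flat type 1 cells spread over the airspaces, cell division slows, and the supply of oxygen rises with breathing. Cells short of oxygen stabilize hypoxia-inducible factor (HIF), which raises glucose transporters, glycolytic enzymes and its own regulators, whereas tissues fed after birth turn to fatty acid oxidation.

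The 4 libraries were alike in depth, with 115937437 and 126749480 counted reads in WT and 117558311 and 119451372 in CF. Among genes with 1 to 20 counts, 72.4% to 78.9% of the counts were even numbers, so both mates of a read pair appear to have been counted and the number of fragments is lower than the number of counts. All values below are CPM, counts relative to library size, scaled by edgeR's TMM factors over the 20 distal libraries, and values are given for replicate 1 and then replicate 2. Errors after ± are approximate standard errors (SE) of the log2 fold change, with 2 libraries in each group. Each is the size of the fold change divided by the square root of the F statistic of edgeR's quasi-likelihood test. That statistic draws on a spread estimated over the 20 distal libraries. The ± therefore does not measure the gap between the 2 libraries of a group. TMM factors were 0.972 and 0.898 in WT and 0.797 and 0.744 in CF, and the 10 most abundant genes took 5.56% and 6.43% of the counts in WT and 7.90% and 7.60% in CF. Replicates were far from interchangeable. On log2 CPM, the root mean square difference over genes was 1.03 between the CF replicates, 0.856 between the WT replicates and 0.994 between the CF and WT means. The labels call the tissue epithelial, but markers of many cell types were present. Summed over its markers, the surfactant and type 2 cell list lay between 10111 and 37302 CPM in the 4 libraries, the fibroblast list between 1658 and 2959 CPM and the smooth muscle list between 339.7 and 1018 CPM. In such bulk tissue, fewer cells of a type and less RNA per cell cannot be told apart. With 2 libraries against 2, an exact permutation test cannot give a p below 0.333 for a single gene, so all tests borrow the spread of the 20 distal libraries.

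The question of which genes differ between the genotypes at term was answered by 251 differentially expressed genes (DEGs) among 20084 tested, at an adjusted p of 0.001 with the log2 fold change at least 0.58 away from 0. Of these, 114 were higher in CF (0.568% of the genes tested) and 137 lower (0.682%). With the adjusted p set at 0.05, 1439 genes were higher (7.16%) and 1453 lower (7.23%), and this second limit is used wherever members of a gene list are counted as higher or lower. Over all genes tested the log2 fold change had a median of 0.00. These counts depended on single libraries: without CF replicate 1 there were 368 higher and 411 lower DEGs, without CF replicate 2 there were 28 and 15, without WT replicate 1 there were 31 and 49, and without WT replicate 2 there were 22 and 137. All 251 DEGs were called at the 0.05 limit in each of these 4 fits. The counts also depended on the spread borrowed from other ages. Fitted on the 4 term libraries alone, edgeR's quasi-likelihood test gave 0 DEGs, with 15 genes higher and 14 lower at the 0.05 limit and 3245 of 18546 genes at an unadjusted p under 0.05. DESeq2 on all 20 libraries gave 746 higher and 788 lower DEGs. For many lists, counts are also given below at an unadjusted p under 0.05 in edgeR's quasi-likelihood test, which 3107 of all genes tested met as higher (15.5%) and 3029 as lower (15.1%), and by DESeq2 at the 0.05 limit, which called 2042 higher (10.2%) and 2041 lower (10.2%). Of the genes named below, MYBPC3, PIWIL3, NDUFA4L2, MARCO, ADGRE1, LRRN4, CPT1A, SCNN1B and LOC105605070 were still called at the 0.05 limit from the 4 libraries alone.

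Genes were then separated by whether both CF libraries or only 1 of them had shifted. A CF library counted as shifted where its log2 CPM lay 0.58 or more from the WT mean and outside both WT libraries, with no test. Both CF libraries were shifted the same way for 5099 genes (25.4%), 2421 of them higher and 2678 lower. CF replicate 1 alone was shifted for 2594 genes (12.9%) and CF replicate 2 alone for 4424 (22.0%), while 705 genes were shifted in opposite directions in the 2 CF libraries. All 251 DEGs were shifted in both, and for 223 of them the CF libraries lay less than 1 log2 unit apart (98 higher and 125 lower). The remaining 28 were uneven, with the CF libraries 1 or more log2 units apart. DEGs and other called genes were picked on these same 4 libraries, by a test that favours genes on which libraries of a group agree. Their shifts in both CF libraries are therefore largely set by that choice. At the 0.05 limit, 15 of the 251 DEGs were called from the 4 term libraries alone and 124 from the 8 libraries at day 120 and term. Of the 2892 genes called at the 0.05 limit, 2326 (80.4%) were shifted in both CF libraries, 484 in CF replicate 2 only and 81 in CF replicate 1 only. The remaining gene was shifted in neither. Of the 484, 290 were higher, which is 20.2% of the genes called higher, and 194 were lower, which is 13.4% of the genes called lower. No test was made of that difference.

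Shifts of a single CF library were also present in the proximal library of the same replicate number, which was sequenced separately. The paper took both regions from 2 animals per genotype and time point. No label links a proximal to a distal library, so equal replicate numbers are taken here and below to mean the same animal. Among genes whose average log2 CPM reached 1, the 1422 higher in CF replicate 2 alone had a median gap between the CF replicates of 0.65 in distal lung and 0.59 in proximal lung. The 1844 lower in CF replicate 2 alone had median gaps of -0.77 and -0.64. Genes shifted in CF replicate 1 alone behaved likewise, with medians of -0.64 and -0.62 for the 737 that were higher and 0.88 and 0.74 for the 792 that were lower. The proximal gap had the sign of the distal gap for 91.6% to 93.6% of the genes in these 4 classes. Genes shifted in neither CF library shared the sign of the gap for 78.3%, but their median distal gap was only -0.06. The share was 79.0% and 76.0% for genes shifted up and down in both CF libraries. It was 97.2% and 98.6% for genes shifted in opposite directions. The 4 classes were in effect chosen for a wide distal gap, so their higher share was partly set by that choice. These shares describe 1 CF animal against 1 other.

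**Figure D1:**
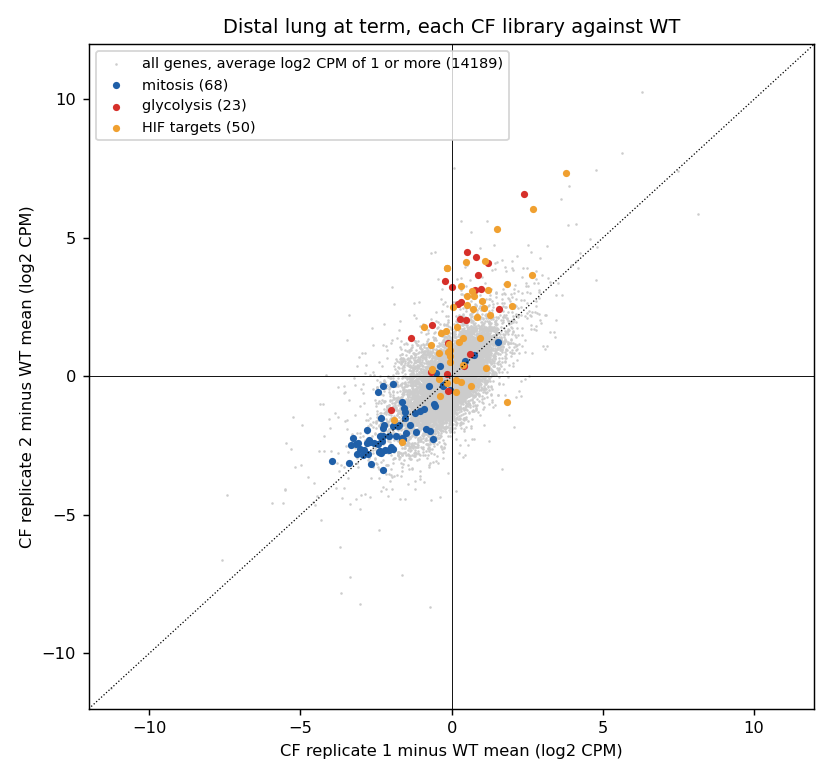
Each point is a gene whose average log2 CPM reached 1, in distal lung at term (14189 genes), at its log2 CPM in CF replicate 1 (x) and CF replicate 2 (y) minus the WT mean. Mitosis genes (blue) lie near the dotted line of equal shift, below 0 in both CF libraries, whereas glycolysis genes (red) and HIF targets (orange) lie mostly above that line.

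CFTR itself was lower in CF but not absent. Its level was 10.5 and 12.8 CPM in WT and 3.69 and 4.90 CPM in CF, a log2 fold change of -1.43 ± 0.27 (SE, adjusted p = 0.00329). Both CF libraries lay below both WT libraries. The gene is on chromosome 4 at 50644000 to 50864925 of Oar_v4.0, and its counts cover all of its exons, so they do not show whether the targeted exon was altered. Proximal lung of the same animals had 9.58 and 14.8 CPM in WT and 3.89 and 5.14 CPM in CF.

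Several genes that move sodium and liquid across the epithelium were lower in both CF animals. SCNN1B, the beta subunit of the epithelial sodium channel (chromosome 24, 21058908 to 21085025), stood at 286 and 358 CPM in WT and 56.3 and 50.6 CPM in CF. That is 6.02-fold lower, with a log2 fold change of -2.59 ± 0.31 (adjusted p = 0.000182), and the groups did not overlap. The alpha subunit SCNN1A had 70.7 and 73.5 CPM in WT and 33.4 and 27.8 CPM in CF, also without overlap. It did not pass edgeR's quasi-likelihood test (-1.24 ± 0.43, adjusted p = 0.0632). DESeq2, the bias-adjusted quasi-likelihood test and a fit with a replicate block called it lower. The gamma subunit SCNN1G, at 55.5 and 87.5 CPM in WT against 15.7 and 28.8 in CF, did not pass either (adjusted p = 0.0552). ATP1B1, the beta chain of the sodium pump, was at 170.4 and 176 CPM in WT against 95.6 and 109 in CF, and SGK1, a kinase that keeps the sodium channel at the cell surface, at 148 and 74.9 CPM in WT against 33.4 and 9.92 in CF. Both passed, at log2 fold changes of -0.76 and -2.36, and that of SGK1 ranged from -3.53 to -1.77 over the alternative fits. Conversely NEDD4L, the ubiquitin ligase that removes the channel, was called higher (0.93), with 173 and 129 CPM in WT and 187 and 386 CPM in CF, a shift of CF replicate 2 alone.

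Among chloride and potassium channels the directions were mixed. ANO1, a calcium-activated chloride channel (chromosome 21, 46438353 to 46544132), had 359 and 337 CPM in WT and 119.7 and 94.3 CPM in CF (-1.70 ± 0.21, adjusted p = 0.000212). KCNQ1, a potassium channel that supports chloride secretion, was lower as well, at 12.2 and 13.8 CPM in WT and 1.88 and 5.10 CPM in CF. SLC26A9, a chloride transporter that interacts with CFTR, went the other way in 1 animal only. It had 12.6 and 16.5 CPM in WT, 77.6 and 13.6 CPM in CF and a log2 fold change of 1.65 ± 0.53 (adjusted p = 0.0497), which turned to -0.14 without CF replicate 1. The same animal's proximal lung had 61.8 CPM against 18.7 CPM in the other CF animal. Of the 22 tested genes in the ion transport list, 7 were lower, 2 higher (0 without either WT library), and 13 did not pass, and the list median was -0.60 against 0.00 for all genes.

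Genes of cell division were lower by like amounts in the 2 CF animals. Of 68 mitosis genes tested, 53 were lower in CF and 2 higher, with a median log2 fold change of -2.01 against 0.00 for all genes tested. Separately against the WT mean, the list median was -1.97 in CF replicate 1 and -2.09 in CF replicate 2. Entry genes (8 of 9 lower), spindle and checkpoint genes (16 of 22), kinetochore and chromosome genes (12 of 19) and kinesins with cytokinesis genes (17 of 18) all took part. Leaving out any of the 4 term libraries in turn gave between 47 and 56 lower mitosis genes.

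CCNB1, the cyclin that drives entry into mitosis (chromosome 16, 10491850 to 10503851), had 22.6 and 12.6 CPM in WT and 2.51 and 2.43 CPM in CF, 7.14-fold lower (-2.84 ± 0.24, adjusted p = 2.75e-05). NEK2, a centrosome kinase, had 15.7 and 14.5 CPM in WT and 1.76 and 2.82 CPM in CF (-2.72 ± 0.23, adjusted p = 2.75e-05). For both genes the WT libraries were high, the CF libraries low, and the CF libraries close to each other. The spindle kinesins KIFC1 and KIF2C fell by 2.35 and 3.36 on the log2 scale, from 23.5 and 15.3 to 3.88 and 3.71 CPM and from 12.4 and 5.72 to 0.790 and 0.967 CPM. Both WT libraries again lay above both CF libraries. MKI67, the proliferation antigen, was at 62.1 and 20.4 CPM in WT and 3.67 and 7.68 CPM in CF, and TOP2A, the topoisomerase of dividing cells, at 93.8 and 33.2 CPM in WT against 7.29 and 7.73 in CF. CDK1, the mitotic kinase, was at 14.8 and 5.74 CPM in WT against 1.33 and 2.40 in CF. These 3 genes passed and were picked after their values were seen. WT replicate 1 was the highest library for all 7 genes given here. The members that were higher instead were NCAPD2, a condensin subunit (45.7 and 36.9 CPM in WT, 69.4 and 69.5 in CF), and TACC3, a spindle protein matched by its gene ID (23.2 and 30.1 CPM in WT against 75.7 and 62.1 in CF), named after their values were seen.

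DNA replication genes were lower with a smaller median. Of 56 tested, 37 were lower and 1 higher, with a median of -1.05 (-0.93 in CF replicate 1 and -1.18 in CF replicate 2). All 7 drivers of S phase were lower, as were 13 of 19 licensing genes and 17 of 30 fork and nucleotide genes. Without WT replicate 1 the count of lower members was 23. CLSPN, a checkpoint adaptor at the fork, had 12.7 and 6.61 CPM in WT and 1.35 and 1.14 CPM in CF (-2.96 ± 0.26, adjusted p = 3.4e-05). RRM2, which supplies deoxynucleotides, had 40.9 and 17.5 CPM in WT against 4.44 and 4.22 in CF, the S phase repressor E2F7 10.3 and 6.56 CPM in WT against 1.23 and 1.06 in CF, and the licensing factor CDC6 6.99 and 3.74 CPM in WT against 0.940 and 1.14 in CF. In each of the 4 genes both CF libraries lay below both WT libraries. The exception was DTL, which marks replication proteins for degradation and rose from 20.3 and 9.90 CPM in WT to 36.9 and 86.7 CPM in CF.

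A list of cell cycle inhibitors and other regulators had calls in both directions. CDKN1C, an imprinted inhibitor of cyclin-dependent kinases, had 30.2 and 30.3 CPM in WT and 101 and 308 CPM in CF (2.76 ± 0.45, adjusted p = 0.00141). CCNG2, a cyclin linked to cell cycle exit, had 40.9 and 31.3 CPM in WT against 65.2 and 131 in CF, and its relative CCNG1 184 and 204 CPM in WT against 314 and 392 in CF. The inhibitor CDKN1B, at 108 and 102 CPM in WT and 144 and 378 CPM in CF, was called through CF replicate 2. Of the 17 tested genes in this list, 4 were higher and 3 lower, and the median was 0.21. The lower members were RBL1 and RBL2, relatives of the retinoblastoma protein, and CCND3, a cyclin that drives G1 and is no inhibitor. Without CF replicate 2 or WT replicate 1, 1 was lower.

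**Figure D2:**
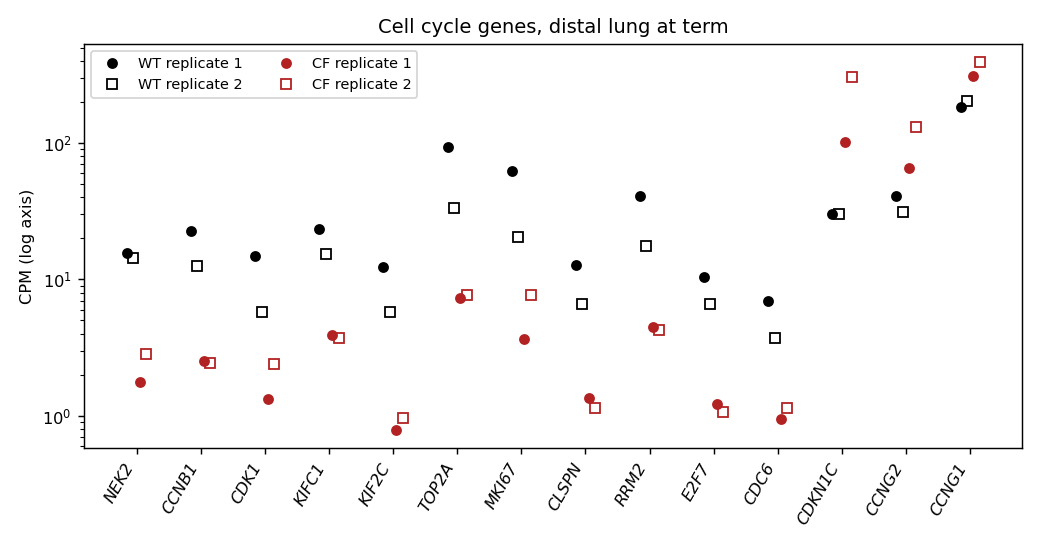
CPM (log axis) of cell cycle genes in the 4 distal libraries at term, 1 symbol per library. For the 11 genes from NEK2 to CDC6 both CF libraries lie below both WT libraries, and for CDKN1C, CCNG2 and CCNG1 both lie above.

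Many glycolysis and HIF target genes were higher in CF, and CF replicate 2 carried most of the difference. Of 23 glycolysis genes tested, 13 were higher and 1 lower (HK3), with a median log2 fold change of 1.83. Against the WT mean, the list median was 0.30 in CF replicate 1 and 2.45 in CF replicate 2. Upward shifts were found in both CF libraries for 8 members and in CF replicate 2 alone for another 8. The count of higher members was 3 without CF replicate 2, 3 without WT replicate 1, 8 without WT replicate 2 and 16 without CF replicate 1.

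SLC2A3, a high-affinity glucose transporter, had 37.6 and 41.9 CPM in WT and 208 and 3818 CPM in CF (5.66 ± 0.89, adjusted p = 0.00111). PDK1, which keeps pyruvate out of the mitochondria, had 12.7 and 14.5 CPM in WT against 31.5 and 229.8 in CF. In both genes CF replicate 1 lay above WT and CF replicate 2 far above CF replicate 1. The enzymes TPI1 and ALDOC showed the same order, with 95.3 and 147 CPM in WT against 231 and 1060.2 in CF for TPI1 and 17.6 and 15.7 CPM against 48.9 and 90.6 for ALDOC. LDHA, which makes lactate, was named after its values were seen because the order stops there. It had 206 and 259.9 CPM in WT, 200.1 CPM in CF replicate 1 and 2540.3 CPM in CF replicate 2, and its log2 fold change of 2.56 (adjusted p = 0.0281) became -0.25 without CF replicate 2. The proximal piece of lung from CF replicate 2 had 2368 CPM of LDHA and 3712 CPM of SLC2A3, and that from CF replicate 1 had 189 and 239.8 CPM.

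Of 53 HIF target genes tested, 22 were higher and 2 lower, with a median of 0.98 (0.31 in CF replicate 1 and 1.64 in CF replicate 2). Genes of cell survival and mitochondria had a median of 2.98 with 9 of 11 higher, whereas oxygen sensors and factors had a median of 0.02 with 2 of 9 higher. Upward shifts of both CF libraries numbered 17, and 17 more were shifts of CF replicate 2 alone. Without CF replicate 2 the higher members numbered 11, and without WT replicate 1 there were 13.

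EGLN3, a prolyl hydroxylase that both senses oxygen and answers to HIF (chromosome 18, 43235038 to 43264406), had 9.57 and 11.8 CPM in WT and 68.9 and 701 CPM in CF (5.17 ± 0.88, adjusted p = 0.00175). Its proximal levels were 9.38 and 8.83 CPM in WT and 63.6 and 635 CPM in CF. Both CF animals were above both WT animals in both pieces of lung, and the CF animals differed from each other by more than CF replicate 1 differed from WT. ANKRD37, a small HIF target, had 1.02 and 1.70 CPM in WT and 18.0 and 217 CPM in CF (6.43 ± 0.94, adjusted p = 0.000668). NDUFA4L2, a mitochondrial protein made under low oxygen, had 38.8 and 34.4 CPM in WT against 229.6 and 463 in CF, and the hormone STC1 37.5 and 35.8 CPM in WT against 132 and 366 in CF. CXCR4, the chemokine receptor, was the one on which the CF animals were closest among these higher targets, at 10.7 and 14.6 CPM in WT and 49.6 and 72.0 CPM in CF. AK4, a mitochondrial adenylate kinase added after its values were seen, had 9.87 and 7.82 CPM in WT against 12.1 and 155 in CF. Not all targets rose. The carbonic anhydrase CA9 was lower (5.47 and 5.31 CPM in WT against 1.43 and 1.80 in CF). HIF1A, the oxygen-regulated subunit itself, had 94.6 and 54.1 CPM in WT and 63.2 and 224 CPM in CF and did not pass edgeR's quasi-likelihood test (adjusted p = 0.122), but was called higher without CF replicate 1.

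**Figure D3:**
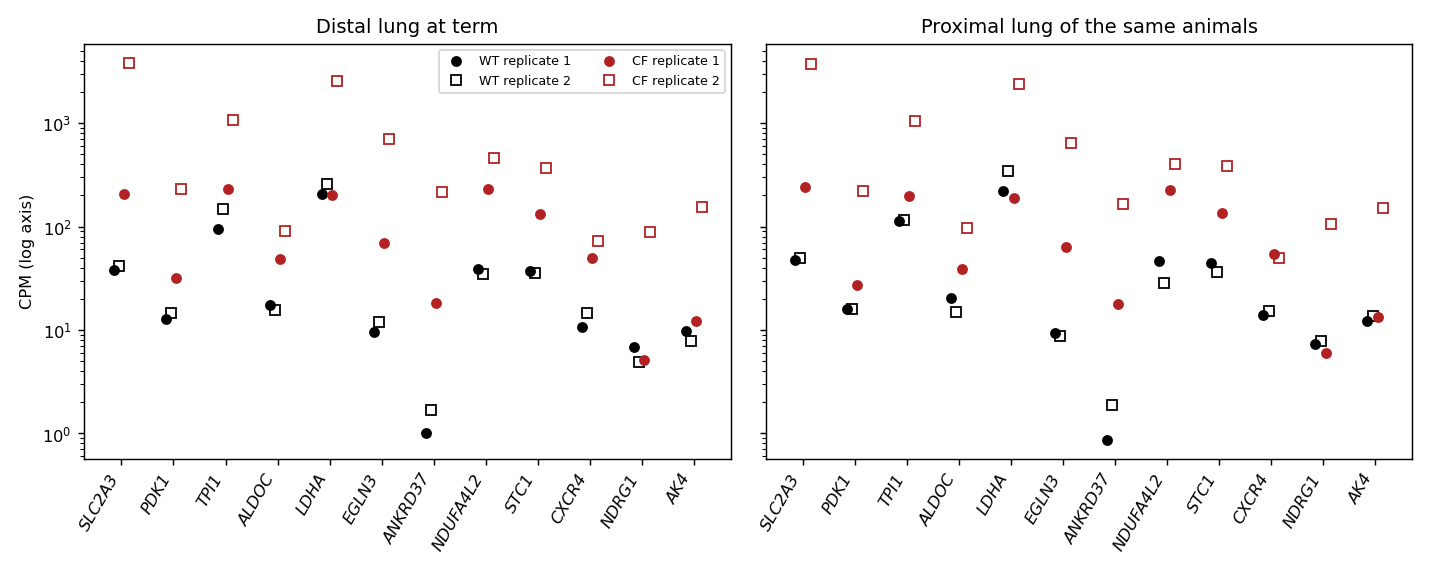
CPM (log axis, shared by both panels) of glycolysis and HIF target genes in distal lung at term (left) and in proximal lung of the same 4 animals (right), 1 symbol per library. CF replicate 2 is the highest library in every gene of the left panel, with CF replicate 1 above both WT libraries in most genes but not in LDHA or NDRG1.

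The widest gaps between the 2 CF animals, among genes shifted in only 1 of them, included genes induced by low oxygen and genes of cytotoxic lymphocytes. GNLY, a protein of cytotoxic granules, had 0.834 and 1.25 CPM in WT, 1.08 CPM in CF replicate 1 and 187 CPM in CF replicate 2, and 0.651 and 101 CPM in the proximal libraries of the CF animals. The annotation places this gene at more than 1 locus, so reads of similar copies may be split or joined. CTSW, a protease of the same cells, had 1.67 and 2.93 CPM in WT and 1.61 and 25.4 CPM in CF. NDRG1, a HIF target, had 6.84 and 4.95 CPM in WT against 5.18 and 88.0 in CF, and BHLHE40, a repressor induced by low oxygen, 17.4 and 15.7 CPM in WT against 14.8 and 249.9 in CF. PTHLH, parathyroid hormone-like hormone, had 0.177 and 0.554 CPM in WT and 0.214 and 7.30 CPM in CF in distal lung but 0.0194 and 0.132 CPM in proximal lung of the CF animals, where both were near 0. GNLY, PTHLH and NDRG1 were called at the 0.05 limit in edgeR's quasi-likelihood test, but the calls of PTHLH and NDRG1 were lost with glmTreat. BHLHE40 (adjusted p = 0.0519) and CTSW (adjusted p = 0.0744) did not pass it, but were called by DESeq2, by the bias-adjusted quasi-likelihood test and without CF replicate 1, and BHLHE40 also with no filter on low counts and after thinning. Without CF replicate 2 the log2 fold change turned to -0.80 for PTHLH, -0.22 for NDRG1, -0.20 for BHLHE40 and -0.54 for CTSW and was 0.02 for GNLY, whose call was lost there and without either WT library. Genes with the opposite gap were low in CF replicate 2. CLCA1, a secreted goblet cell protein, was at 20.7 and 10.3 CPM in WT and 11.2 and 0.697 CPM in CF, and HSD11B2, which inactivates cortisol, at 4.57 and 2.11 CPM in WT against 2.86 and 0.270 in CF. The keratin KRT28, APCDD1L and the ephrin receptor EPHA10 completed this group at levels under 6 CPM in all 4 libraries. These 5 genes had log2 fold changes from -0.48 to -1.38 and adjusted p from 0.335 to 0.733 in edgeR's quasi-likelihood test, so none passed, but all 5 were called lower without CF replicate 1.

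Among DEGs shifted in both CF libraries whose average log2 CPM reached 1, the 10 with the largest positive change were led by C25H10orf10, the sheep counterpart of human DEPP1, with 4.07 and 6.93 CPM in WT and 146 and 927 CPM in CF (6.61 ± 0.69, adjusted p = 6.76e-05). Its exons overlap those of LOC105605070 on the other strand, and whether counting used strand was not given in the sources used here, so its level is uncertain. PDE4C, a cyclic AMP phosphodiesterase, had 0.497 and 0.211 CPM in WT against 4.09 and 28.4 in CF, PIWIL3, a germline small RNA partner, 1.00 and 0.571 CPM in WT against 13.2 and 34.2 in CF, and SLC38A3, a glutamine transporter, 1.15 and 2.75 CPM in WT against 25.9 and 79.1 in CF. In these and in ARRDC2, an arrestin-domain protein (8.39 and 20.2 CPM in WT, 74.3 and 347 in CF), CF replicate 2 was well above CF replicate 1 and both were above WT. Other members of the group were even. MYBPC3, the myosin binding protein of heart muscle, had 1.38 and 0.975 CPM in WT and 21.9 and 25.6 CPM in CF (4.34 ± 0.30, adjusted p = 2.57e-06). Of 10 cardiac muscle markers it alone passed edgeR's quasi-likelihood test, with 3 higher and 2 lower at an unadjusted p under 0.05, while DESeq2 called 2 higher and 1 lower. IL20RA, a receptor chain for interleukins, had 1.54 and 3.60 CPM in WT against 27.2 and 24.5 in CF, and the glutamate receptor GRIA3 0.275 and 0.211 CPM in WT against 1.72 and 2.79 in CF. ANKRD37 and NDUFA4L2, given above, made up the rest.

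The 10 DEGs with the largest negative change, under the same limits, included KIF2C, given above. ASPM, a spindle pole protein, had 22.5 and 7.20 CPM in WT and 0.822 and 1.54 CPM in CF (-3.65 ± 0.46, adjusted p = 0.000279), and HJURP, which loads the centromeric histone, 10.2 and 4.17 CPM in WT against 0.470 and 0.731 in CF. IQGAP3, a scaffold protein, and PARPBP, a regulator of homologous recombination, had log2 fold changes of -4.04 and -3.35. MARCO, the scavenger receptor of alveolar macrophages, had 196 and 495 CPM in WT and 13.6 and 12.5 CPM in CF (-4.72 ± 0.61, adjusted p = 0.000652), while DESeq2 did not call it (-4.72, adjusted p = 0.161). PRG4, lubricin, had 10.7 and 19.6 CPM in WT and 0.609 and 0.990 CPM in CF in distal lung, but 0.959 and 0.570 CPM in WT against 1.54 and 4.79 in CF for proximal lung, where CF was not the lower group. DIO2, the deiodinase that activates thyroid hormone, had 1.63 and 1.35 CPM in WT against 0.107 and 0.135 in CF. The RNA-binding protein MSI1 had 0.745 and 0.492 CPM in WT against 0.0427 and 0.0225 in CF, and the membrane skeleton protein ADD2 3.05 and 0.527 CPM in WT against 0.0214 and 0.0675 in CF. Both rest on 2 to 6 counts in the CF libraries, so their fold is not given. Exons of ANKRD37, PRG4, DIO2, SCNN1A, BHLHE40, THBS1 and DDIT3 also overlap a gene on the other strand, and their levels are uncertain for the same reason as that of C25H10orf10.

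Some endothelial and angiogenic genes were higher in CF by smaller amounts. Of 57 tested, 20 were higher and 0 lower, with a median log2 fold change of 0.57 (0.36 in CF replicate 1 and 0.56 in CF replicate 2). At an unadjusted p under 0.05, 27 were higher and 3 lower in edgeR's quasi-likelihood test, and DESeq2 called 23 higher and 1 lower. Ligands (5 of 14), receptors (7 of 18) and endothelial identity genes (8 of 25) were each represented. EGFL7, secreted by endothelial cells (chromosome 3, 2699148 to 2702214), had 79.6 and 84.2 CPM in WT and 264 and 321 CPM in CF (1.84 ± 0.25, adjusted p = 0.000389). NOTCH4, an endothelial Notch receptor, had 35.3 and 22.5 CPM in WT against 78.6 and 84.6 in CF, the angiopoietin receptor TEK 127 and 101 CPM in WT against 228 and 284 in CF, and its ligand ANGPT2 18.6 and 19.2 CPM in WT against 36.9 and 57.7 in CF. These 4 genes were shifted evenly in both CF animals. Not all members were called. PECAM1 had 579.9 and 476 CPM in WT and 554 and 680.1 CPM in CF, VWF 53.7 and 87.3 CPM in WT against 67.5 and 71.0 in CF, and KDR 308 and 220.3 CPM in WT against 226 and 262 in CF, all chosen after their values were seen. Of the 25 endothelial identity genes, 20 had a positive log2 fold change. The count of 20 higher members became 12 without CF replicate 2 and 11 without WT replicate 2.

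Several type 1 cell genes were lower, while type 2 cell genes showed no call. Of 17 type 1 genes tested, 8 were lower and 0 higher, with a median of -0.97 (-0.70 in CF replicate 1 and -1.36 in CF replicate 2). At an unadjusted p under 0.05, 10 were lower and 0 higher in edgeR's quasi-likelihood test, and DESeq2 called 10 lower and 0 higher. COL4A4, a basement membrane collagen chain, had 844 and 453 CPM in WT and 139 and 66.8 CPM in CF (-2.66 ± 0.50, adjusted p = 0.00344). LMO7 had 461 and 371 CPM in WT against 153 and 162 in CF, the tight junction protein CLDN18 1149 and 899 CPM in WT against 569 and 322 in CF, and RTKN2 140.04 and 79.0 CPM in WT against 28.0 and 8.74 in CF. In all 4 both CF libraries lay below both WT libraries. The log2 fold change of RTKN2 ranged from -3.69 to -2.00 over the alternative fits. PDPN, KRT7, COL4A3 and CLIC5 were the other lower members. AGER, a defining type 1 gene, had 2085 and 2756 CPM in WT and 1473 and 561 CPM in CF and did not pass, and HOPX, another, had 470.2 and 441 CPM in WT against 459.98 and 493 in CF. The count of lower members became 4 without CF replicate 2 and 4 without WT replicate 1.

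None of the 19 surfactant and type 2 cell genes passed edgeR's quasi-likelihood test, in which 1 was lower and 0 higher at an unadjusted p under 0.05, and DESeq2 called 0. The list median was -0.23, made of 0.03 in CF replicate 1 and -0.45 in CF replicate 2. SFTPA1, surfactant protein A, had 3514 and 4464 CPM in WT, 3978 CPM in CF replicate 1 and 1054 CPM in CF replicate 2 (-0.66 ± 0.59, adjusted p = 0.48). SFTPB, the surfactant protein needed for spreading of the lipid film, followed the same order at 3147 and 4227, 3498 and 1699.7 CPM. CF replicate 1 was thus within the WT range for both genes, and CF replicate 2 was the low library. SFTPC, named after its values were seen, was highest in CF replicate 1 (23101 CPM) and lowest in CF replicate 2 (3261 CPM), with WT at 7967 and 14922 CPM. ABCA3, the lipid transporter of the same cells, had 65.6 and 139.9 CPM in WT and 77.9 and 33.6 CPM in CF, and LAMP3 548 and 599 CPM in WT against 919 and 609 in CF. Without CF replicate 1, 6 of the 19 genes were called lower in edgeR's quasi-likelihood test, among them ABCA3 (-1.65, adjusted p = 0.0238) and SFTPA1 (-1.96, adjusted p = 0.0427), and without any other single term library 0 were.

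Airway genes had few calls. Of 15 ciliated cell genes, 10 were shifted down in CF replicate 1 alone and 0 were called. None was under an unadjusted p of 0.05 in edgeR's quasi-likelihood test, and DESeq2 called 0. Their summed level was 573 CPM in WT replicate 1, 1103 in WT replicate 2, 426 in CF replicate 1 and 953 in CF replicate 2, so both replicate 2 libraries held more of these genes than both replicate 1 libraries. TPPP3 had 296 and 403 CPM in WT and 235 and 286 CPM in CF, and DNAI2, a dynein arm protein, 10.5 and 28.6 CPM in WT against 5.55 and 19.5 in CF. Airway secretory genes had the same order for SCGB3A2, a secretoglobin, at 497 and 3509 CPM in WT and 419 and 2638 CPM in CF. WFDC2, a protease inhibitor, did not share it (152 and 228 CPM in WT against 285 and 159 in CF). Of the 13 secretory genes, 2 were lower and 6 more were shifted down in CF replicate 1 alone. None was lower without CF replicate 1 or WT replicate 2, and 1 was without CF replicate 2. BPIFA1, an antimicrobial protein, had 2.41 and 62.5 CPM in WT and 0.0641 and 0.630 CPM in CF, and its difference rests largely on WT replicate 2. Its call was lost in DESeq2 (adjusted p = 0.241) and without CF replicate 1, CF replicate 2 or WT replicate 2. MUC5AC, matched by its gene ID, had 0.728 and 0.158 CPM in WT and 0 counts in both CF libraries. Its WT levels rest on 82 and 18 counts, and the call was lost when any of the 4 term libraries was left out. All 6 basal cell genes were below WT in CF replicate 1, and 5 of them were above WT in CF replicate 2. KRT15 had 11.1 and 79.3 CPM in WT and 7.57 and 282 CPM in CF, whereas NGFR had 0.603 and 1.02 CPM in WT against 0.534 and 0.180 in CF. None of the 6 passed edgeR's quasi-likelihood test, with 1 lower at an unadjusted p under 0.05 and 0 called by DESeq2, and NGFR was called lower without CF replicate 1. The part that the amount of airway in each piece of tissue plays in these values was not tested.

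**Figure D4:**
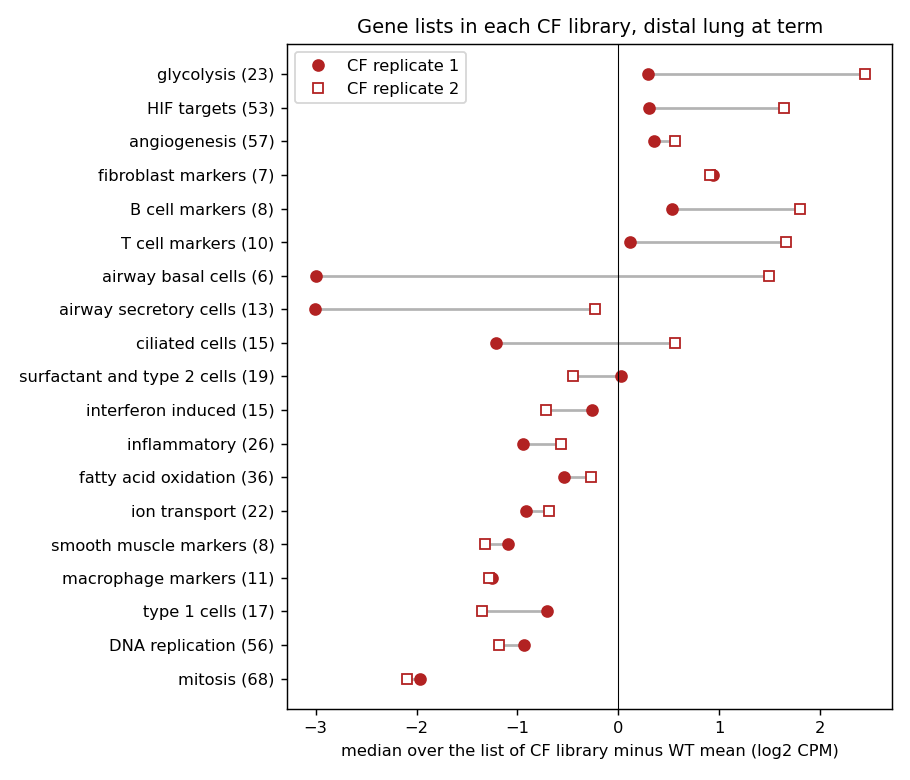
Median over each gene list (number of genes tested in brackets) of the CF library minus the WT mean on log2 CPM, for CF replicate 1 (filled circle) and CF replicate 2 (open square) in distal lung at term. Mitosis lies at -1.97 and -2.09 with the symbols nearly together, while glycolysis lies at 0.30 and 2.45 and airway basal cells at -2.99 and 1.49.

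Several markers of macrophages and smooth muscle were lower in CF in both animals. Of 11 macrophage markers, 6 were lower and 0 higher, with 11 lower at an unadjusted p under 0.05 in edgeR's quasi-likelihood test and 7 called lower by DESeq2. The count of 6 became 4 without CF replicate 1 or WT replicate 2. Their summed level was 1012 and 2148 CPM in WT and 501 and 502 CPM in CF, and in proximal lung 1262 and 1760.4 CPM in WT and 302 and 417 CPM in CF. Besides MARCO, the lower markers were ADGRE1, MRC1, MSR1, CSF1R and C1QB. ADGRE1, a macrophage surface receptor, had 44.8 and 82.5 CPM in WT and 1.26 and 2.58 CPM in CF. Of 8 smooth muscle markers, 5 were lower and 0 higher, with 7 lower at an unadjusted p under 0.05 in edgeR's quasi-likelihood test and 5 called lower by DESeq2. ACTA2, smooth muscle actin, had 404 and 409 CPM in WT and 178 and 91.2 CPM in CF, and the calponin CNN1 40.9 and 41.6 CPM in WT against 9.57 and 6.01 in CF. ACTG2, TAGLN and MYH11 were the other 3. Of 7 fibroblast markers, TCF21, DCN and PDGFRA were higher and 4 did not pass edgeR's quasi-likelihood test, COL1A1 and LUM among them. The higher markers numbered 4 in DESeq2 and without WT replicate 1, and 2 without WT replicate 2.

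Lymphocyte markers had few calls. Of 10 T cell markers, 7 were shifted up in CF replicate 2 alone and 0 were called in edgeR's quasi-likelihood test, with 2 higher at an unadjusted p under 0.05 and 1 called by DESeq2. Without CF replicate 1, 3 were called higher. Their summed level was 41.8 and 59.4 CPM in WT and 51.6 and 149 CPM in CF. JCHAIN, the joining chain of secreted antibodies, had 5.24 and 7.67 CPM in WT and 9.97 and 235 CPM in CF, and CD22, a B cell receptor, 10.2 and 5.23 CPM in WT against 37.0 and 24.6 in CF, the 2 higher markers of 8 for B cells. Of these 8, 4 were shifted up in both CF libraries and 4 in CF replicate 2 alone, and 1 was called without CF replicate 2 or without WT replicate 1. Other markers moved in small numbers. Red cell markers (2 of 9, ALAS2 among them), the mast cell marker KIT (1 of 3), the fast muscle troponins TNNT3 and TNNI2 (2 of 7) and the myelin gene MAG (1 of 8) were higher, and ACTA1, MBP and the mesothelial markers LRRN4 and UPK3B (2 of 7) were lower. DESeq2 called 4 red cell markers higher, and 4 mesothelial markers lower and 1 higher. The red cell count became 1 without CF replicate 2 or either WT library. The call of MBP was lost when any 1 of the term libraries was left out, and that of ACTA1 in all of these fits but the one without WT replicate 2. Cartilage markers were called in both directions, 2 higher (MATN3 and COL9A3) and 2 lower (COL9A2 and SOX6) of 11. With any 1 of the term libraries left out 1 was lower, and 1 was higher except without WT replicate 1, where 0 were. Of 5 lymphatic markers LYVE1 was higher and PDPN, which type 1 cells share, lower. Both calls were lost without CF replicate 2 and without WT replicate 1, and that of LYVE1 also without WT replicate 2. No neutrophil, liver or neuroendocrine marker was called in edgeR's quasi-likelihood test or by DESeq2, with 2 neutrophil markers higher and 1 liver and 1 neuroendocrine marker lower at an unadjusted p under 0.05. Without CF replicate 1, 1 neutrophil marker was called higher and 1 neuroendocrine marker lower, and without WT replicate 2, 1 neutrophil marker was called higher. The part that any change of cell numbers plays in the gene groups above was not tested.

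Of 36 fatty acid oxidation genes tested, 9 were lower and 2 higher, with a median of -0.38 (-0.54 in CF replicate 1 and -0.27 in CF replicate 2). Import genes (3 of 8 lower) and regulators (5 of 11 lower) held 8 of the 9, and 1 of 17 oxidation enzymes was lower. The difference between these roles was not tested. Without CF replicate 2 the lower members numbered 5. CPT1A, the rate-limiting step of fatty acid entry into mitochondria (chromosome 21, 45332148 to 45391563), had 223 and 213 CPM in WT and 36.0 and 41.6 CPM in CF. That was 5.61-fold lower (-2.49 ± 0.15, adjusted p = 1.25e-06), and the libraries of each group lay close together. UCP2, an uncoupling protein, had 539 and 506 CPM in WT against 187 and 154 in CF, and the peroxisomal enzyme EHHADH 106 and 82.0 CPM in WT against 39.9 and 42.6 in CF. TXNIP, a brake on glucose uptake, was higher, at 1267 and 1209 CPM in WT and 2401 and 4225 CPM in CF.

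Genes answering to glucocorticoids, which rise before birth and mature the lung, had few calls. Of 18 tested, 2 were higher and 2 lower, with a median of -0.12. At an unadjusted p under 0.05, 3 were higher and 6 lower in edgeR's quasi-likelihood test, and DESeq2 and the bias-adjusted test each called 4 lower. GLUL, glutamine synthetase, had 355 and 437 CPM in WT and 206 and 162 CPM in CF (-1.11 ± 0.16, adjusted p = 0.000534), and SGK1 was the other lower member. DUSP1, a phosphatase that damps kinase signalling, was higher at 220.2 and 184 CPM in WT against 261 and 618 in CF, as was CDKN1C. The call of DUSP1 was lost without CF replicate 2 and without either WT library, and 1 member was higher without CF replicate 2 or WT replicate 1. Immediate early genes, which answer to handling and stress within minutes, had 6 higher and 2 lower members of 22. The higher members numbered 1 without CF replicate 2, 1 without WT replicate 1 and 2 without WT replicate 2. IER3 had 19.99 and 43.4 CPM in WT and 59.6 and 356 CPM in CF, and the nuclear receptor NR4A1 33.5 and 11.8 CPM in WT against 47.9 and 87.1 in CF, while the matrix protein THBS1 was lower at 633 and 265 CPM in WT against 71.5 and 97.2 in CF. Of 15 stress genes 4 were higher, among them the small heat shock protein HSPB1 (271 and 312 CPM in WT, 647 and 515 in CF). DDIT3 (8.21 and 14.2 CPM in WT against 26.2 and 39.6 in CF) was another. So was ATF4 (249 and 391 CPM in WT against 473 and 949 in CF). Over the alternative fits the log2 fold change ranged from 1.20 to 1.96 for DDIT3 and from 0.53 to 1.53 for ATF4. The calls of HSPB1 and ATF4 were lost with glmTreat. XBP1, a factor of the unfolded protein response, was the lower member (271 and 399.8 CPM in WT against 164 and 129 in CF). Without WT replicate 1 the higher stress genes numbered 1, and the lower ones numbered 4 without CF replicate 1, and 3 in DESeq2.

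Of 26 inflammatory genes tested, 6 were lower and 1 higher (IL6), with a median of -0.78. At an unadjusted p under 0.05, 13 were lower and 2 higher in edgeR's quasi-likelihood test, and the lower members numbered 9 in DESeq2 and 11 in the bias-adjusted test. Without CF replicate 2 the lower members numbered 1, and without WT replicate 2 there were 4. IL6 was called in neither of those fits, nor without WT replicate 1. LOC101123672, which the study follows as a gene of complement component C4, had 49.5 and 70.3 CPM in WT and 21.9 and 23.8 CPM in CF (-1.39 ± 0.26, adjusted p = 0.00353). ICAM1, an adhesion molecule for leukocytes, had 436 and 461 CPM in WT against 199.8 and 143 in CF, the cytokine IL1A 3.42 and 9.76 CPM in WT against 1.53 and 0.742 in CF, and the pentraxin PTX3 7.94 and 46.0 CPM in WT against 4.77 and 1.597 in CF. WT replicate 2 was the highest library for each of these 4. The log2 fold change ranged from -3.19 to -1.63 for IL1A and from -4.11 to -1.36 for PTX3 over the alternative fits. Other inflammatory genes followed by the study did not pass edgeR's quasi-likelihood test. C3 had 319 and 853 CPM in WT and 419.9 and 316 CPM in CF, CHI3L1 32.6 and 86.1 CPM in WT against 24.6 and 40.5 in CF, and CXCL8 2.43 and 13.3 CPM in WT against 0.555 and 2.44 in CF, with adjusted p of 0.2, 0.16 and 0.0826. All 3 were called lower without WT replicate 1, and CXCL8 also by DESeq2 and the bias-adjusted quasi-likelihood test. Without WT replicate 2, however, the log2 fold change of C3 turned to 0.16. KNG1 had 18.2 and 43.7 CPM in WT against 14.3 and 48.7 in CF, so both replicate 2 libraries were above both replicate 1 libraries. Of 15 interferon genes 2 were lower, with 4 in the bias-adjusted test and none without CF replicate 2 or without WT replicate 1. Among the 2 was the RNA sensor DDX58 (28.3 and 28.3 CPM in WT against 17.4 and 9.63 in CF). TJP1, a tight junction protein, had 376 and 246 CPM in WT and 297 and 235 CPM in CF and did not pass.

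Matrix and developmental genes moved in both directions. Of 40 matrix genes, 6 were higher and 5 lower, with 12 lower without CF replicate 1 and 3 lower without CF replicate 2 or WT replicate 1. DESeq2 called 9 lower. COL15A1, a basement membrane collagen, had 145 and 127 CPM in WT and 386 and 355 CPM in CF (1.45 ± 0.19, adjusted p = 0.00032), and the laminin chain LAMA4 399 and 301 CPM in WT against 752 and 823 in CF. The proteases were split, with MMP11 higher (27.8 and 29.9 CPM in WT against 64.9 and 81.7 in CF) and the membrane protease MMP15 lower (275 and 127 CPM in WT against 51.8 and 42.8 in CF). Of 48 lung development genes, 8 were higher and 1 lower, with 4 higher without WT replicate 2 and 5 lower without CF replicate 1. TCF21, a mesenchymal factor, had 144 and 162 CPM in WT and 407 and 425 CPM in CF, BMP5 36.1 and 30.8 CPM in WT against 63.7 and 68.1 in CF, and TBX5, which patterns the lung bud, 63.9 and 45.3 CPM in WT against 127 and 92.4 in CF. ETV4, an epithelial target of fibroblast growth factors, was the lower one at 10.97 and 12.7 CPM in WT against 4.34 and 1.63 in CF. FGF10, the mesenchymal growth factor upstream of it, was higher at 12.5 and 8.999 CPM in WT against 44.9 and 22.4 in CF and was named after its values were seen.

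Imprinted genes were examined because cloning can disturb imprints. Of 23 tested, 5 were higher and 2 lower (DIRAS3 and NNAT), with a median of 0.42. Without CF replicate 2 or WT replicate 2, 3 were higher. The lower members numbered 0 without WT replicate 2 and 1 without CF replicate 1 or WT replicate 1. IGF2, the fetal growth factor, had 205 and 62.2 CPM in WT and 518 and 963 CPM in CF (2.47 ± 0.63, adjusted p = 0.0187). Its log2 fold change ranged from 1.80 to 3.56 over the alternative fits, and its call was lost with glmTreat. GNAS, matched by its gene ID, had 1659 and 1598 CPM in WT against 4115 and 7654 in CF. RTL1 had 0 counts in both WT libraries and 0.235 and 0.911 CPM in CF, at least 21.6-fold higher against a floor of 3 counts per library, but its exons overlap a microRNA cluster and a gene on the other strand. Its neighbours were looked at after these values were seen: GTL2, the maternally expressed noncoding RNA (chromosome 18, 64335882 to 64362055), had 53.4 and 38.2 CPM in WT and 197 and 264 CPM in CF (2.33 ± 0.24, adjusted p = 6.04e-05). The paternally expressed DLK1 had 13.1 and 20.9 CPM in WT against 58.1 and 50.2 in CF. It did not pass edgeR's quasi-likelihood test (adjusted p = 0.0503). DESeq2, the bias-adjusted test, a fit with a replicate block and a fit with no filter on low counts called it higher. The counts carry no allele information.

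The last comparison asked whether the genotype difference at term was already present at day 120. The test of the difference between the differences called 845 genes more positive at term (4.21% of the genes tested) and 1024 more negative (5.10%), at an adjusted p of 0.05 with no limit on the fold. From the 8 libraries of these 2 ages alone, edgeR's quasi-likelihood test called 0 in each direction, and DESeq2 on all 20 called 1589 and 1730. At day 120 the WT distal libraries were shallower, with 24670355 and 40601998 counted reads against 86480033 and 94449264 in CF. Cell division genes were prominent, with 47 of 68 mitosis genes and 28 of 56 replication genes more negative at term. CCNB1 was at 15.1 and 16.6 CPM in WT and 17.2 and 19.7 CPM in CF at day 120, so the genotypes were close then and apart at term. The difference changed by -3.05 ± 0.33 on the log2 scale (adjusted p = 0.000389).

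CPT1A, SCNN1B and ANO1 had like levels in both genotypes at day 120, and WT was the higher group at term. CPT1A was at 33.9 and 33.4 CPM in WT and 34.6 and 32.3 CPM in CF at day 120, which is close to the term level of CF and far below the term level of WT. The change of its difference was -2.48 ± 0.21 (adjusted p = 6.12e-05). SCNN1B was at 12.4 and 23.8 CPM in WT against 16.3 and 21.9 in CF at day 120 and was higher at term in both genotypes, but less in CF (-2.66 ± 0.42, adjusted p = 0.00238). ANO1 was at 114 and 123 CPM in WT against 87.1 and 105 in CF (-1.39 ± 0.29, adjusted p = 0.00934). For EGLN3 the CF libraries departed instead, from 14.0 and 6.11 CPM at day 120, while WT was at 7.07 and 11.1 CPM (5.03 ± 1.11, adjusted p = 0.014). For SFTPA1 the CF libraries were the higher ones at day 120 and not at term. It was at 229 and 187 CPM in WT and 1226 and 1271 CPM in CF at day 120 (-3.25 ± 0.85, adjusted p = 0.0291). Differences in EGFL7, GTL2 and MYBPC3 were present at both ages. EGFL7 had 79.5 and 88.5 CPM in WT and 167 and 273 CPM in CF at day 120, GTL2 194 and 174 CPM in WT against 619 and 606 in CF, and MYBPC3 2.23 and 2.62 CPM in WT against 30.3 and 34.8 in CF. The test of a change did not pass for these 3, with adjusted p of 0.447, 0.267 and 0.343. CFTR did not pass either (-0.91 ± 0.37, adjusted p = 0.137).

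**Figure D5:**
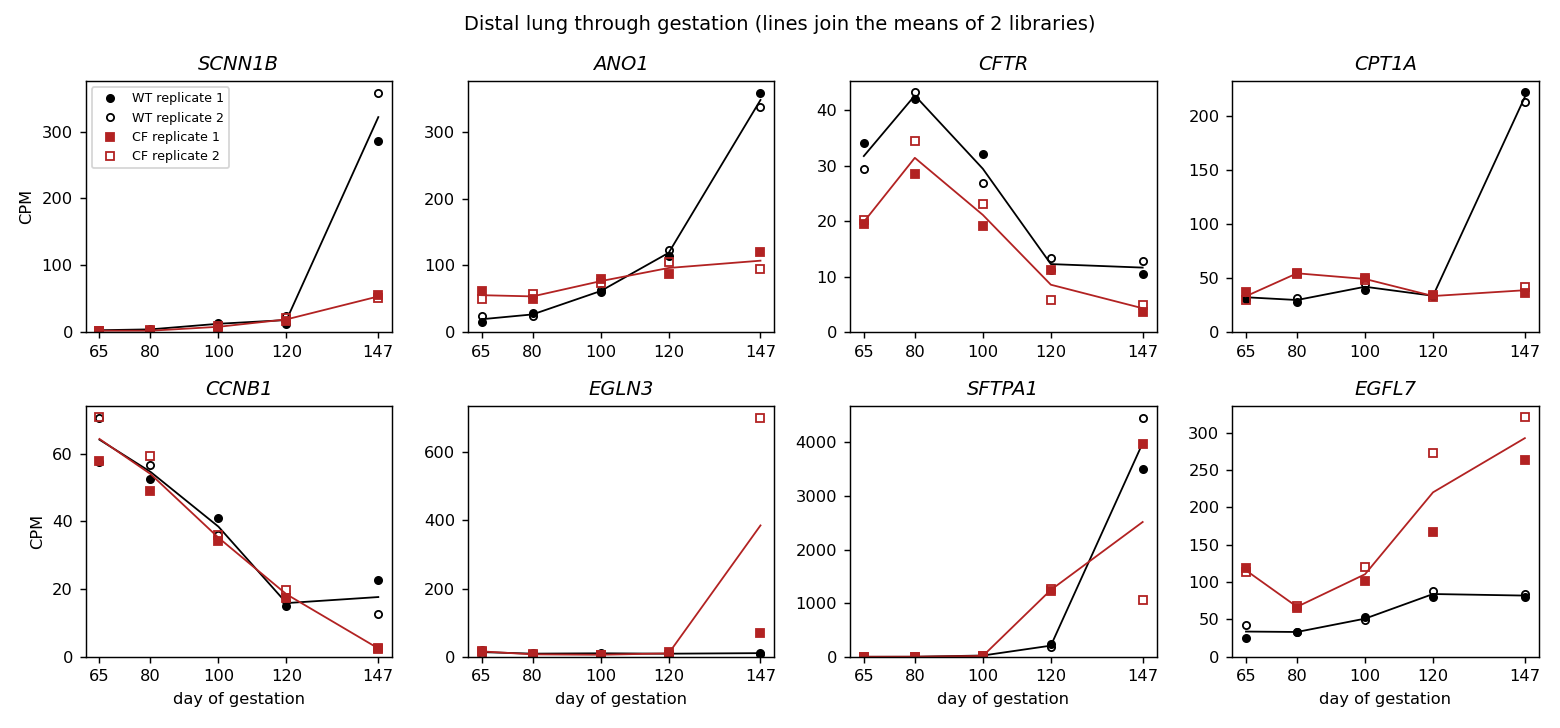
CPM of 8 genes in distal lung against the day of gestation, with each library as a symbol (black circles WT, red squares CF, open symbols replicate 2) and lines through the means of 2 libraries. At term WT is above CF for SCNN1B, ANO1, CPT1A and CCNB1, and CF is above WT for EGLN3, mainly in replicate 2.

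Proximal lung of the same 4 animals was close to distal lung in some list medians and not in others. Its medians were -2.23 for mitosis, -1.10 for DNA replication, 1.79 for glycolysis, 0.99 for HIF targets, 0.63 for angiogenesis and -1.20 for type 1 cells, beside -2.01, -1.05, 1.83, 0.98, 0.57 and -0.97 in distal lung. They differed more for macrophage markers (-2.74 against -1.38 in distal lung), T cell markers (0.34 against 1.06) and red cell markers (0.62 against 1.77). Signs were opposite for mesothelial markers (1.47 against -1.99), basal cell genes (-0.96 against 0.28) and matrix genes (0.48 against -0.10), and also for neutrophil (-0.28 against 0.41), liver (-0.53 against 0.28), cardiac muscle (0.63 against -0.57) and skeletal muscle markers (0.28 against -0.996). For single genes, SCNN1B was at 257 and 242 CPM in WT and 37.1 and 54.5 CPM in CF in proximal lung, CPT1A at 224 and 245 CPM in WT against 39.1 and 41.3 in CF, and CCNB1 at 21.3 and 16.9 CPM in WT against 2.89 and 1.52 in CF. The paper took both regions from 2 animals of each genotype, so the proximal values are not further replicates of the genotypes.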

How the data were processed

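RNA of whole frozen lung was reverse transcribed with oligo dT priming and sequenced as paired ends. Per the submitters' processing notes, reads were aligned with STAR 2.6 and assigned to genes with featureCounts 1.6.3. The methods name another STAR release, and the genome is Oar_v4.0. Annotation release, use of strand and treatment of mates were not given in the sources used here. The authors deposited raw counts per gene for 24478 genes, with no normalization, and these deposited counts were used.

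Counts were filtered with filterByExpr (minimum count 10, minimum total 15), scaled by TMM and fitted with edgeR 4.0.16 (R 4.3.3) by the quasi-likelihood test on all 20 distal libraries, with 1 mean per genotype and age, which left 20084 genes. P-values were adjusted by Benjamini-Hochberg over all of them. The libraries of a group are labelled as separate samples. P-values rest on the spread between libraries of the same group, estimated over all 20 distal libraries, and that spread may be partly technical. The 20 proximal libraries were fitted likewise. For shifts of single CF libraries, 0.5 was the prior count on the log2 CPM scale.

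Groups came from the labels. Gene lists, members and named genes were chosen with earlier results of these data known. Named genes were the 10 largest changes in each direction among DEGs shifted in both CF libraries whose average log2 CPM reached 1, up to 4 members per list with the smallest p, genes the study follows, the 5 widest gaps between CF libraries in each direction and the 6 smallest p for the change from day 120. Genes without a proper symbol were left out of the lists of largest changes and widest gaps. All other genes with values were chosen after their values were seen. Of 752 list members, 708 were matched by symbol, 16 by gene ID and 28 not. Alternatives were other sets of libraries, DESeq2 1.42.0, RLE scaling, bias-adjusted quasi-likelihood, glmTreat, no filter, thinning to 24670355 reads, a replicate block and leaving out each library. Steps were tested on simulated data. Values of a few list members are not reported here.

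Replicates of a genotype differed by far more than counting error, so no library was counted as deposited more than once. Replicate numbers name different animals in the 2 genotypes, so no pairing was used.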

Additional observations from a re-analysis of the deposited data

Results flagged for a closer look

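The genotype difference at term was larger or smaller than that at day 120 for the genes given here, by the test of the difference between the 2 differences in edgeR's quasi-likelihood fit (Benjamini-Hochberg adjusted p, 2 libraries per group). In all, 845 genes were more positive at term and 1024 more negative. The WT libraries at day 120 held 24670355 and 40601998 counted reads and the CF libraries 86480033 and 94449264, and with the libraries thinned to equal depth 909 genes were more positive and 973 more negative.

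Genes of division and replication were more negative at term, KIFC1 by -2.79 ± 0.29 on the log2 scale (adjusted p = 0.000334) and CLSPN by -3.44 ± 0.35 (0.000334). CPT1A changed by -2.48, SCNN1B by -2.66 and ANO1 by -1.39. EGLN3 changed by 5.03 ± 1.11 (adjusted p = 0.014).

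Of 19 surfactant and type 2 cell genes 4 were more negative at term, and of 26 inflammatory genes 6 were. SFTPA1 changed by -3.25, SFTPB by -2.13 (adjusted p = 0.0217), LOC101123672 by -2.73 (0.00113), CHI3L1 by -2.31 (0.0248) and C3 by -2.33 (0.0103). CXCL8 (-3.18, adjusted p = 0.12) and KNG1 (0.23, adjusted p = 0.954), which the study also follows, did not pass. SFTPB was at 539.96 and 573 CPM in WT and 1729 and 1696 CPM in CF at day 120, and C3 was at 90.8 and 136 CPM in WT and 375 and 339 CPM in CF.

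In 3 other genes the order of the genotypes turned between the ages. LOC101113636 was at 62.0 and 79.6 CPM in WT and 46.8 and 40.3 CPM in CF at day 120, and at 5.45 and 5.30 and then 20.04 and 21.5 CPM at term, a change of 2.65 ± 0.22 (adjusted p = 6.12e-05). PTPRE, a receptor tyrosine phosphatase, was at 6.65 and 5.80 CPM in WT and 17.2 and 15.2 CPM in CF at day 120, and at 114 and 76.0 and then 21.7 and 19.3 CPM at term (-3.59 ± 0.37, adjusted p = 0.000334). CDR1 was at 37.2 and 45.6 CPM in WT and 4.68 and 2.03 CPM in CF at day 120, and at 0.124 and 0.0703 and then 0.416 and 0.877 CPM at term (6.34 ± 0.65, adjusted p = 0.000334). All 4 libraries of CDR1 at term were under 1 CPM.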

How the results depend on the processing

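The number of calls depended on which libraries set the spread and on the tool, and the cause was not tested apart from the smaller number of libraries. Against 114 higher and 137 lower DEGs, edgeR's quasi-likelihood test gave 0 and 0 from the 4 term libraries and 0 and 0 from the 8 libraries at day 120 and term, with 3245 and 3816 genes at an unadjusted p under 0.05. DESeq2 gave 746 and 788, the bias-adjusted quasi-likelihood 174 and 209, and glmTreat 27 and 37. At the 0.05 limit (1439 higher, 1453 lower) the 4 libraries gave 15 and 14, the 8 libraries 86 and 95 and glmTreat 396 and 428. For the change from day 120 (845 and 1024), the 8 libraries gave 0 and 0 and DESeq2 1589 and 1730. RLE scaling, no filter and thinning stayed within 1.5 times for these counts. The median log2 fold change of all genes moved by less than 0.1 under each alternative.

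Leaving out 1 library, with a lone library assumed to vary like the other groups, gave 22 to 368 higher and 15 to 411 lower DEGs, 671 to 1736 higher and 657 to 2303 lower genes at the 0.05 limit, and 315 to 1688 more positive and 421 to 2263 more negative changes from day 120.

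For gene lists, the 4 libraries, the 8 libraries and glmTreat gave in turn 0, 0 and 8 higher glycolysis genes (13 with all 20 libraries), 0, 3 and 22 lower DNA replication genes (37), 0, 2 and 7 higher angiogenesis genes (20) and 0, 1 and 3 lower type 1 genes (8). The 4 and the 8 libraries gave 1 and 4 higher HIF targets (22) and 0 and 20 lower mitosis genes (53). Leaving out 1 library gave 3 to 16 glycolysis genes, 11 to 29 HIF targets, 47 to 56 mitosis genes, 23 to 40 replication genes, 11 to 20 angiogenesis genes and 4 to 9 type 1 genes. A shift limit of 1 left 2743 of the 5099 genes shifted in both CF libraries. Restricting to an average log2 CPM of 1 or more left 3114 of these, and 1529 of the 2594 shifted in CF replicate 1 only.

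Directions turned when a library was left out for 16 genes, of which SLC26A9, PTHLH, NDRG1 and LDHA had been called. Leaving out each library, the log2 fold change ranged from -0.14 (without CF replicate 1) to 2.38 for SLC26A9. It turned negative without CF replicate 2 in PTHLH (-0.80 to 4.34), NDRG1 (-0.22 to 3.86), LDHA (-0.25 to 3.41), BHLHE40 (-0.20 to 3.88), CTSW (-0.54 to 3.43), HIF1A (-0.27 to 1.55), KRT15 (-2.61 to 3.65) and KNG1 (-1.14 to 0.75), and positive in APCDD1L (-2.97 to 0.35) and EPHA10 (-3.09 to 0.32). The other ranges were -1.84 to 0.20 for DNAI2, -2.29 to 1.57 for SCGB3A2, -0.30 to 0.55 for WFDC2, -0.54 to 0.097 for TJP1 and -1.23 to 0.16 for C3. With no filter KNG1 was at -0.0017.

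A replicate block gave 167 higher and 194 lower DEGs, 1834 and 1753 genes at the 0.05 limit, and 1295 more positive and 1363 more negative changes from day 120. The replicate numbers name different animals, and the replicate differences of CF and WT at term correlated across genes at 0.163.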
